A study of Mus musculus with 36 samples.

Results

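Glycolysis converts glucose to pyruvate and lactate, and the transcription factor HIF-1 raises many of its genes. HIF-1 pairs an oxygen-regulated alpha subunit, encoded by Hif1a, with a constant partner, and prolyl hydroxylases of the EGLN family mark the alpha subunit for destruction when oxygen is present. In macrophages, Toll-like receptor signals are known to raise Hif1a and glycolysis without low oxygen. The genes described here are 31 genes of glycolysis and of the HIF-1 response, out of 52636 genes counted. They were chosen by name with earlier results of these data known, which the comparisons with all genes below do not allow for. They are 15 glycolytic enzymes from hexokinase to lactate dehydrogenase, the glucose transporter gene Slc2a1, the lactate transporter genes Slc16a1 and Slc16a3, the regulators Pfkfb3, Pfkfb4 and Pdk1, and 10 genes of HIF-1 control and response (Hif1a, Egln1, Egln3, Vegfa, Bnip3, Bnip3l, Ankrd37, P4ha1, P4ha2 and Ndrg1).

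RNA-seq was made from mouse bone marrow-derived macrophages (BMDMs), which are marrow cells grown in the growth factor M-CSF, of N4bp1 knockout (KO) mice and of wild-type (WT) mice. N4bp1 encodes a protein known to restrain cytokine responses. The macrophages had been given R837 (imiquimod, an agonist of Toll-like receptor 7) for 7 h, for 3 h, or for 3 h followed by 0.5, 1, 2 or 4 h of actinomycin D (ActD), which blocks transcription. All 12 groups had thus received R837, unstimulated macrophages were not analysed here, and each group held 3 libraries, which the labels assign to 3 individual mice. The protocol text names wild-type C57BL/6N mice for every library, so the genotype was taken from the genotype label; the sources used here give neither the targeting design nor the age of the mice.

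Libraries held 20271550 to 46107214 counts on genes, and the 31 genes took up 0.466 to 1.07% of them. N4bp1 itself was at 141 to 145 CPM (counts scaled to a common library total) in KO and 169.8 to 182 CPM in WT at 7 h of R837, and at 81.3 to 86.0 CPM in KO and 125 to 147 CPM in WT at 3 h. After 4 h of ActD its level was 76.8 to 94.2 CPM in KO and 53.4 to 63.3 CPM in WT, so that the KO libraries were the higher ones there. A transcript that lacks only some exons is still counted, so these levels do not check the labels. Macrophage markers (7 genes, among them Adgre1 and Csf1r) summed to 17221 to 47780 CPM over the 36 libraries, and none of the 7 had a median count under 10 in any group. Fibroblast markers (6 genes) summed to 28.5 to 30.4 CPM in KO and 15.4 to 18.1 CPM in WT at 7 h, and to 28.4 to 30.2 CPM in KO and 13.6 to 15.4 CPM in WT at 3 h. Of these genes 6 of 6 were called higher in KO at 7 h and 5 of 6 at 3 h. Of the 5 T cell markers 3 (Cd3e, Cd3d and Cd3g) had a median count under 10, so that the sum is nearly all Cd4 and Cd8a. The 5 summed to 19.4 to 21.3 CPM in KO and 17.8 to 21.0 CPM in WT at 7 h. At 3 h they summed to 22.7 to 24.9 CPM in KO and 11.2 to 13.9 CPM in WT. Of the 2 that were tested, 1 was called higher and 1 lower in KO, both at 3 h and at 7 h. Neutrophil markers (7 genes) summed to 79.6 to 90.8 CPM at 7 h and 175 to 201 CPM at 3 h in KO. In WT they summed to 69.4 to 77.0 CPM at 7 h and 151 to 168 CPM at 3 h. All 5 erythroid markers had a median count under 10. Endothelial markers (4 genes) summed to 15.7 to 18.3 CPM in KO and 12.3 to 12.6 CPM in WT at 7 h, to 18.9 to 19.2 CPM in KO and 15.1 to 19.6 CPM in WT at 3 h, and after 4 h of ActD to 12.8 to 16.8 CPM in KO and 6.63 to 7.58 CPM in WT. B cell markers (5 genes) summed to 5.79 to 6.24 CPM at 7 h and 10.3 to 11.6 CPM at 3 h in KO, and to 6.07 to 6.80 CPM at 7 h and 9.22 to 10.5 CPM at 3 h in WT. The part of these other cells in the differences between KO and WT, between 7 h and 3 h and with ActD below was not tested. In such bulk libraries fewer cells of a type and less RNA per cell cannot be told apart.

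All 31 genes passed the filter on low counts. Scaled by gene length (RPKM, counts scaled to gene length and library total, computed from the counts), the highest levels in KO at 7 h were those of Ldha, which encodes the lactate dehydrogenase subunit that favours lactate (764 ± 25.4 RPKM, SD, n = 3), the aldolase gene Aldoa (679.7 ± 23.2), the triosephosphate isomerase gene Tpi1 (526 ± 10.1) and Slc2a1 (299 ± 1.14). In WT at 7 h these 4 genes were at 698 ± 6.67, 675 ± 12.6, 505 ± 4.23 and 206 ± 3.55 RPKM in the same order. Some enzymes have near-identical copies in the genome, whose reads the counting may have split or left out, so that these genes may be undercounted. In the annotated transcripts, 68.0% of the 50-base words of the phosphoglycerate kinase gene Pgk1, 59.1% of those of Bnip3, 49.5% of those of the enolase gene Eno1 and 41.5% of those of the phosphoglycerate mutase gene Pgam1 also occurred in other genes. The smallest median counts were those of Pgam1 (62), Ankrd37 (65), Egln3 (79.5) and Pfkm (130.5), and Gapdh, which is not among the 31, had a median count of 1.5. The levels of Pgk1, Bnip3, Eno1 and Pgam1 are therefore uncertain, as are those of Ankrd37, Pkm, Gpi1 and Pfkm, which share 10.7 to 26.4% of their exon bases with another gene. To a lesser degree this holds for Ndrg1 (8.43%), Hif1a (8.11%) and Pfkp (5.58%), and 24.4% of the 50-base words of Bnip3l also occurred in another gene. Other genes also held 12.3% of the words of Ndrg1, 10.4% of those of Ldha, 8.46% of those of Aldoa and 6.83% of those of Tpi1. The library kit does not mark strand.

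Between 3 h and 7 h of R837, nearly the whole set rose in both genotypes. In KO, 28 of the 31 genes were higher and 3 lower at 7 h than at 3 h (edgeR quasi-likelihood test, Benjamini-Hochberg adjusted p below 0.05 over 13748 genes), where 28.7% of all genes tested were higher and 31.7% lower (60.4% in either direction). In WT, 28 were higher and 2 lower, where 27.3% of all genes were higher and 30.7% lower (58.0% in either direction). The 28 genes were the same. The median log2 fold change of the 31 was 1.23 in KO and 0.86 in WT, against -0.027 and -0.035 for all genes tested. In KO 18 and in WT 12 of the genes rose at least 2-fold. All 31 together summed to 10906 to 11162 CPM in KO at 7 h against 4868 to 5063 CPM in KO at 3 h. In WT they summed to 9326 to 9540 CPM at 7 h against 4762 to 5132 CPM at 3 h.

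**Figure D1:**
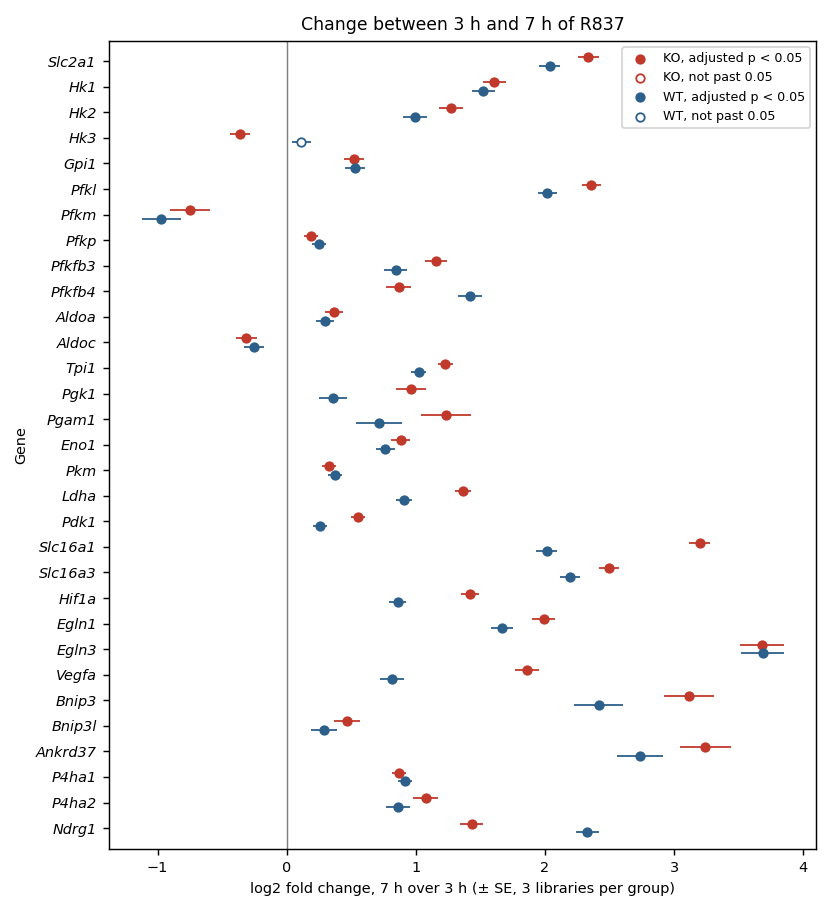
Change between 3 h and 7 h of R837 of the 31 genes (rows, in the order of the pathway and then HIF-1 control and response), as the log2 fold change of 7 h over 3 h ± SE, for KO (red, upper point of each row) and WT (blue, lower point), 3 libraries per group. Filled points passed an adjusted p of 0.05. In each genotype 28 filled points lie right of 0, up to 3.68 for Egln3 in KO and 3.69 in WT, while Pfkm and Aldoc lie left of 0 in both.

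The 3 transporters, which carry the substrate in and the product out, were all among the 8 genes with the largest log2 change in both genotypes. Slc2a1, which encodes the glucose transporter GLUT1, was at 975, 972 and 979.5 CPM in the KO libraries at 7 h, against 195, 197 and 188 CPM at 3 h (5.05-fold, log2 2.34 ± 0.082, SE). In WT it was at 664, 665 and 684 CPM at 7 h, against 163, 169 and 158 CPM at 3 h (4.10-fold). Every 7 h library lay above every 3 h library in both genotypes, and the KO libraries were the higher ones at both times. Slc16a3, which encodes the lactate exporter MCT4, was at 1021, 1005 and 1049 CPM in KO at 7 h and 178, 190.4 and 177 CPM at 3 h (log2 2.49 ± 0.08). In WT, Slc16a3 was at 792, 809.9 and 807 CPM at 7 h and 188, 179.9 and 158 CPM at 3 h (log2 2.20 ± 0.079). Slc16a1, which encodes MCT1, a carrier that moves lactate in either direction, was at 251, 266 and 268 CPM in KO at 7 h, against 30.0, 26.3 and 29.2 CPM at 3 h (9.17-fold). In WT it was at 114, 123 and 129.7 CPM at 7 h, against 31.2, 29.2 and 30.4 CPM at 3 h (4.04-fold). The 3 h libraries of both genotypes lay together for Slc16a1, and every KO library at 7 h lay above every WT library.

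The enzymes were more uneven. Pfkl, the liver-type phosphofructokinase gene at the committed step, was at 312, 318 and 325 CPM in KO at 7 h and 63.9, 61.3 and 60.7 CPM at 3 h (5.13-fold). In WT, Pfkl was at 244, 264 and 259 CPM at 7 h and 60.5, 68.1 and 61.4 CPM at 3 h (4.04-fold). No other enzyme rose as much, and among the next were Hk1 (log2 1.61 ± 0.088 in KO, 1.52 ± 0.089 in WT) and Ldha (1.36 ± 0.063 in KO, 0.91 ± 0.062 in WT). Hk2 (1.27 ± 0.094 in KO, 0.99 ± 0.095 in WT) and Tpi1 (1.23 ± 0.058 in KO, 1.02 ± 0.057 in WT) rose as well. Aldoa and the pyruvate kinase gene Pkm, already among the highest at 3 h, rose by log2 0.36 and 0.32 in KO and by 0.30 and 0.37 in WT. The glucose-6-phosphate isomerase gene Gpi1 rose by 0.52 in KO and 0.53 in WT, Eno1 by 0.88 in KO and 0.76 in WT. Pgk1 rose by 0.96 in KO and 0.36 in WT and Pgam1 by 1.23 in KO and 0.72 in WT. The 3 regulator genes rose as well. Pfkfb3 rose by 1.16 ± 0.088 in KO and 0.84 ± 0.088 in WT, and Pfkfb4 by 0.87 ± 0.096 in KO and 1.42 ± 0.093 in WT. Pdk1 rose by 0.55 ± 0.055 in KO and 0.26 ± 0.054 in WT. A few enzyme genes moved the other way. The muscle-type phosphofructokinase gene Pfkm fell in KO (log2 -0.75 ± 0.16) and in WT (-0.97 ± 0.15), as did the brain-type aldolase gene Aldoc (-0.31 ± 0.083 in KO, -0.25 ± 0.08 in WT). Hk3, a hexokinase gene typical of myeloid cells, fell in KO only by the test (-0.36 ± 0.075), with 0.11 ± 0.075 in WT (edgeR adjusted p = 0.194).

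Of the genes of HIF-1 control and response, all 10 rose in both genotypes. Egln3, the prolyl hydroxylase gene known for its strong response to HIF-1, was at 33.3, 40.0 and 40.1 CPM in KO at 7 h, against 4.16, 2.46 and 1.93 CPM at 3 h (12.8-fold). In WT it was at 44.2, 47.3 and 48.4 CPM at 7 h, against 3.50, 3.78 and 3.58 CPM at 3 h (12.9-fold). Ankrd37, an ankyrin repeat gene also known to respond to HIF-1, was at 19.8, 18.3 and 20.6 CPM in KO at 7 h and 1.82, 1.94 and 2.51 CPM at 3 h (9.45-fold). In WT, Ankrd37 was at 21.4, 24.4 and 26.4 CPM at 7 h and 3.43, 2.68 and 4.63 CPM at 3 h (6.67-fold). These 2 genes had the largest log2 changes of the set in both genotypes, from 3 h levels of a few CPM. Bnip3, which encodes a receptor for the removal of mitochondria, was at 45.7, 44.2 and 37.2 CPM in KO at 7 h and 5.39, 3.08 and 6.21 CPM at 3 h (8.66-fold). In WT, Bnip3 was at 33.3, 36.2 and 36.7 CPM at 7 h and 7.08, 6.53 and 6.31 CPM at 3 h (5.33-fold). Its relative Bnip3l rose by log2 0.47 ± 0.10 in KO and 0.29 ± 0.10 in WT. Egln1, the main hydroxylase gene acting on the alpha subunit at normal oxygen, was at 107, 109 and 103 CPM in KO at 7 h and 29.1, 25.5 and 25.5 CPM at 3 h (log2 1.99 ± 0.086). In WT, Egln1 was at 87.9, 93.6 and 89.0 CPM at 7 h and 30.0, 28.9 and 26.4 CPM at 3 h (log2 1.67 ± 0.085). Hif1a itself rose by log2 1.42 ± 0.067 in KO and 0.86 ± 0.066 in WT, and the collagen prolyl hydroxylase genes P4ha1 and P4ha2 by 0.87 and 1.08 in KO and 0.92 and 0.86 in WT. Under 8 alternative ways of processing at the same threshold and with each library left out in turn, 30 of the 31 calls held in KO, all but Pfkp, and 28 of the 30 in WT. The WT calls that did not hold were Bnip3l (log2 0.25 without WT library 2 of 3 h) and Aldoc (-0.19 without WT library 3 of 3 h). Under the 3 other scalings 28 of the 30 WT calls held, and Bnip3l and Aldoc were again the ones lost.

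**Figure D2:**
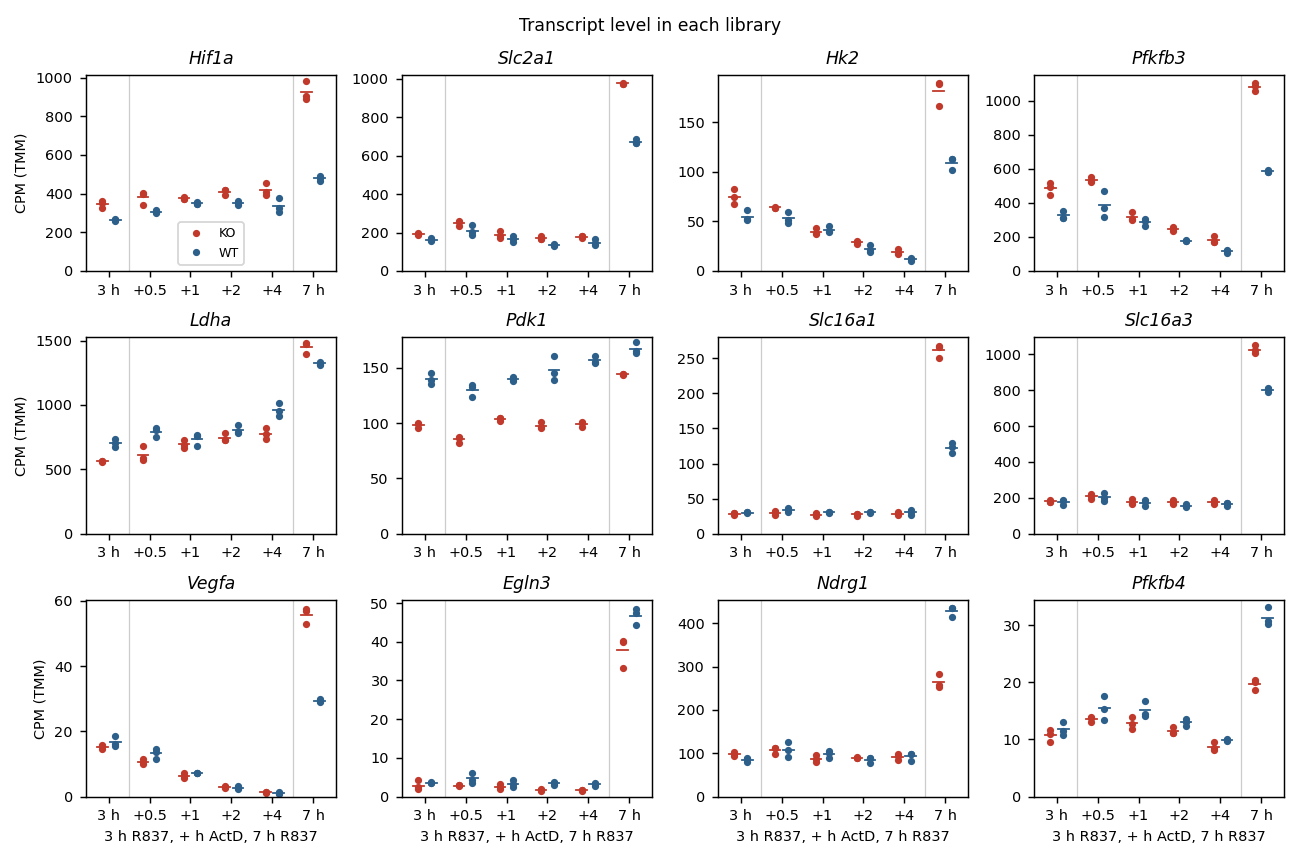
Transcript level of 12 of the genes in each of the 36 libraries, in CPM on a linear axis from 0, for KO (red, left in each pair) and WT (blue, right); points are libraries and short lines are group means (n = 3). From left to right each panel gives 3 h of R837, then 3 h of R837 with 0.5, 1, 2 and 4 h of ActD, then 7 h of R837. The 7 h libraries stand above the 3 h ones in all 12 panels, and at 7 h KO stands above WT for Hif1a, Slc16a1 and Vegfa and below it for Ndrg1, Pfkfb4 and Pdk1.

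HIF-1 binds the hypoxia response element, whose core reads ACGTG or GCGTG, and the start regions of the genes were searched for it. The genes were chosen by name as genes of glycolysis and of the HIF-1 response. The shares below are not computed from these libraries but depend on that choice, which was made with earlier results of these data known. A link to the changes above was not tested. RefSeq (GRCm38.p6) lists start regions for 29 of the 31 genes. In the 250 bases before a listed start, 27 of the 29 held ACGTG or GCGTG on either strand, against 41.5% of 27025 genes. The 29 genes have 43 listed start regions and the 27025 have 32851, so that the 29 have more starts per gene; counted by region, 35 of 43 held either, against 38.6% of all. ACGTG was in 20 of 29, against 18.5% of genes, and GCGTG in 19 of 29, against 30.9%. Base composition was not matched, a 5-letter match is no evidence of binding, and the genes Gpi1 and Tpi1 held neither. The 250 bases before the start are printed for the 3 genes with the largest rise in KO (Egln3, Ankrd37 and Slc16a1). They are also printed, of the further genes that differed between KO and WT at 7 h, for the 2 that were highest in KO (Hif1a and Vegfa) and the listed one that was lowest (Pfkfb4). They read 5′ to 3′ on the gene's strand, with each match to ACGTG or GCGTG, on either strand, in capitals (overlapping matches run together). Egln3 is from chr12:54203875-54204124 (minus strand), Ankrd37 from chr8:45999851-46000100 (minus), Slc16a1 from chr3:104638414-104638663 (plus), Hif1a from chr12:73907617-73907866 (plus), Vegfa from chr17:46032378-46032627 (minus) and Pfkfb4 from chr9:108991652-108991901 (plus).
Egln3: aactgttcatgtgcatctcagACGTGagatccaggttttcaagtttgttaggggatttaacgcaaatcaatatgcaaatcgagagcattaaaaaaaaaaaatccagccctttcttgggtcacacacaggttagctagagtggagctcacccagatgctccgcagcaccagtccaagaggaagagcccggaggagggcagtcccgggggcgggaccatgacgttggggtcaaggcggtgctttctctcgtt
Ankrd37: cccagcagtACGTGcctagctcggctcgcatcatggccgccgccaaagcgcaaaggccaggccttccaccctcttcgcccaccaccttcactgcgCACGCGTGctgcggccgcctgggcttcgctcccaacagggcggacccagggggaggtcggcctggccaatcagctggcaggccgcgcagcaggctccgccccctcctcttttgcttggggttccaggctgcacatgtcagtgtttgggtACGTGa
Slc16a1: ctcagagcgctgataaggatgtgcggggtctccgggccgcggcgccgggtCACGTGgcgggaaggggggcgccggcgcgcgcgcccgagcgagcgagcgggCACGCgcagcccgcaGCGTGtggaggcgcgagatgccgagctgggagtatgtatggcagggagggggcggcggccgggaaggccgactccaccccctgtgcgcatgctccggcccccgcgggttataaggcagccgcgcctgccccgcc
Hif1a: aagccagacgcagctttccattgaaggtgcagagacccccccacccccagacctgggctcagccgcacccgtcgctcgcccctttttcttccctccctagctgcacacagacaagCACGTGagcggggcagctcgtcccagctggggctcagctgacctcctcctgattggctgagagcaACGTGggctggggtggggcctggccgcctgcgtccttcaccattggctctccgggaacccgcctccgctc
Vegfa: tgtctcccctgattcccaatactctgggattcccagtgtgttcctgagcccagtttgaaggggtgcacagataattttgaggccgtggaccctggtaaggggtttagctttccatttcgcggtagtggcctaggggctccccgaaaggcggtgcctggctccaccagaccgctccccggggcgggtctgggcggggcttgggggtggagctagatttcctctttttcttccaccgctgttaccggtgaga
Pfkfb4: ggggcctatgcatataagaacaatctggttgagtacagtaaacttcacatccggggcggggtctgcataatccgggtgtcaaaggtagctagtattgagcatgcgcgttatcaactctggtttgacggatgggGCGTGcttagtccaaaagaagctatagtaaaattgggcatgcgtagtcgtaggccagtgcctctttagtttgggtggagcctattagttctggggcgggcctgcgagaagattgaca
Egln3 and Pfkfb4 each show 1 capital run, Hif1a 2, Ankrd37 and Slc16a1 3 each, and Vegfa none in this window. Hif1a and Slc16a1 each include CACGTG, which holds ACGTG on both strands. The starts used for Ankrd37 and Hif1a lie 5857 and 6492 bases from the 5′ end of the gene in the GENCODE annotation.

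The balance within enzyme and carrier families shifted as well. Of the 3 phosphofructokinase transcripts per length, Pfkl made up 71.8 ± 0.479% in KO and 65.9 ± 0.759% in WT at 7 h (SD, n = 3), and 35.5 ± 0.218% in KO and 35.3 ± 0.629% in WT at 3 h. The platelet-type gene Pfkp, whose own level was nearly flat (log2 0.19 ± 0.056 in KO, 0.25 ± 0.056 in WT), made up 27.3 ± 0.434% in KO and 33.2 ± 0.736% in WT at 7 h, against 60.8 ± 0.21% in KO and 60.6 ± 0.79% in WT at 3 h. Among the hexokinases, Hk3 made up 47.1 ± 2.46% in KO and 60.0 ± 1.20% in WT at 7 h, and 75.7 ± 0.893% in KO and 77.2 ± 1.02% in WT at 3 h. Hk2, the hexokinase gene best known as inducible, made up 25.1 ± 1.43% in KO and 15.6 ± 0.807% in WT at 7 h. Slc16a1 made up 20.4 ± 0.609% of the 2 lactate carriers in KO and 13.3 ± 0.611% in WT at 7 h, and 13.6 ± 1.24% in KO and 14.8 ± 1.15% in WT at 3 h. For these 5 genes the shares in the 3 KO and the 3 WT libraries did not overlap at 7 h. These shares are a description with no test, and parts of the Pfkp and Pfkm transcripts occur in other genes (15.4% and 8.83% of their 50-base words).

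**Figure D3:**
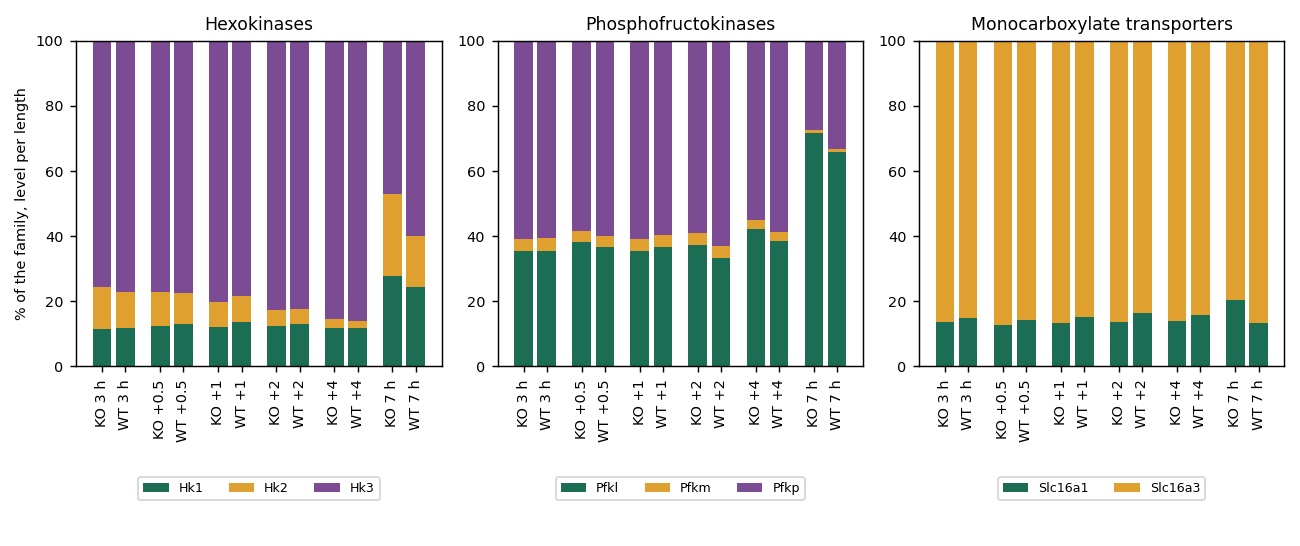
Composition of 3 gene families by group, as the mean percent of the family's summed level per length (bars from 0 to 100%, n = 3 libraries each), for hexokinases, phosphofructokinases and monocarboxylate transporters. Within each condition KO is left of WT, and conditions run from 3 h of R837 over 0.5 to 4 h of ActD to 7 h of R837. Hk1 and Hk2 take a larger and Hk3 a smaller share at 7 h, Pfkl replaces Pfkp as the larger share, and Slc16a1 is larger in KO than in WT at 7 h.

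At 7 h of R837, KO and WT macrophages differed in 18 of the 31 genes. In KO 10 were higher (Slc16a1, Hif1a, Vegfa, Pfkfb3, Hk2, Slc2a1, Slc16a3, Pfkl, Hk1 and Egln1) and 8 lower (Ndrg1, Pfkfb4, P4ha2, Hk3, Aldoc, Pdk1, Pkm and P4ha1), where 15.5% of all genes tested were higher and 15.1% lower (30.6% in either direction). The shares of the set were 32.3% and 25.8%. Scaling to 71 ribosomal protein genes gave 8 higher and 3 lower, and library totals alone gave 8 and 11. Those 71 genes held only 0.635% of the counts of the genes tested, so that this scaling, here and below, rests on few reads. The median log2 fold change of the 31 was 0.0098, against -0.0069 for all genes tested. Hif1a had 888, 979.6 and 906 CPM in KO libraries and 466, 482 and 491 CPM in WT (1.93-fold, log2 0.95 ± 0.066, edgeR adjusted p = 5.85e-15). Its KO libraries all lay above its WT libraries, with a wide gap. The largest difference was in Slc16a1 (log2 1.10 ± 0.076, edgeR adjusted p = 5.24e-15), whose libraries are given above.

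Among regulators and targets, Vegfa, which encodes the vascular growth factor VEGF-A, had 53.0, 57.4 and 56.9 CPM in KO libraries and 28.9, 29.8 and 29.3 CPM in WT (1.90-fold, log2 0.93 ± 0.09). Pfkfb3 encodes the enzyme that makes fructose-2,6-bisphosphate, the strongest activator of phosphofructokinase, and had 1057, 1104 and 1085 CPM in KO libraries and 592, 584 and 582 CPM in WT (1.85-fold, log2 0.88 ± 0.088). Pfkfb4, its close relative with the same 2 activities, went the other way: it had 20.1, 20.4 and 18.6 CPM in KO libraries and 33.1, 30.2 and 30.7 CPM in WT (log2 -0.67 ± 0.09). Per length, Pfkfb3 was by far the larger transcript of this pair, at 196 ± 4.27 RPKM in KO and 106 ± 1.00 RPKM in WT, against 5.65 ± 0.284 and 8.99 ± 0.455 RPKM of Pfkfb4. Hk2 had 167, 189 and 189 CPM in KO libraries and 101, 113 and 113 CPM in WT (log2 0.73 ± 0.093). Ndrg1, a stress-responsive gene, had 258, 253 and 283 CPM in KO libraries and 435, 414 and 436 CPM in WT (1.62-fold lower in KO, log2 -0.69 ± 0.087). None of these 5 genes had KO and WT libraries that overlapped, and the same held for 25 of the 31 genes in all. These 5 were named for their large change, and the share over all genes was not computed.

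Most core enzymes did not pass the test at 7 h. Ldha (log2 0.13 ± 0.062), Eno1 (0.009 ± 0.072), Aldoa (0.0098 ± 0.072), Pgk1 (0.027 ± 0.11) and Tpi1 (0.059 ± 0.057) were among them, and Pkm was lower in KO (-0.18 ± 0.054). The 15 enzymes together summed to 5441 to 5684 CPM in KO and 5317 to 5430 CPM in WT. Of the hydroxylase genes, Egln1 was higher in KO (log2 0.24 ± 0.08) and Egln3 did not pass the test, at -0.31 ± 0.13 (edgeR adjusted p = 0.0814). Under all alternatives run at the same threshold, 11 of the 18 calls held: Slc16a1, Hif1a, Vegfa, Pfkfb3, Hk2, Slc2a1, Slc16a3 and Pfkl higher and Ndrg1, Pfkfb4 and Aldoc lower in KO. The calls of Egln1 (log2 0.22 to 0.23 without KO library 1 or 2 or WT library 1 or 3), Hk1 (0.21 to 0.24 without KO library 2 or 3 or WT library 1 or 3) and P4ha1 (-0.15 to -0.14 without KO library 1 or WT library 3) were lost when 1 library was left out.

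**Figure D4:**
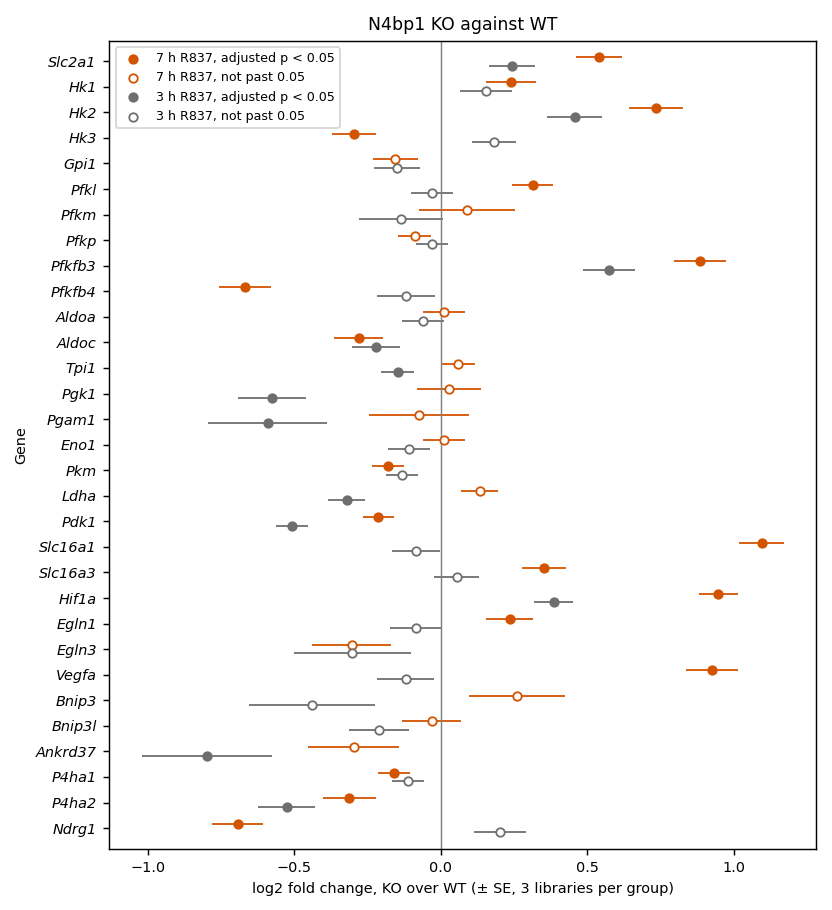
Difference between KO and WT macrophages for the 31 genes, as the log2 fold change of KO over WT ± SE at 7 h (orange, upper point of each row) and 3 h (grey, lower point) of R837, 3 libraries per group. Filled points passed an adjusted p of 0.05. Slc16a1, Vegfa and Slc16a3 lie right of 0 as filled points at 7 h only, Pdk1 and P4ha2 lie left of 0 at both times, and Ndrg1 and Pfkfb4 lie left of 0 as filled points at 7 h only.

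At 3 h of R837, 12 of the 31 genes differed between KO and WT, 4 higher (Pfkfb3, Hk2, Hif1a and Slc2a1) and 8 lower in KO (Ankrd37, Pgam1, Pgk1, P4ha2, Pdk1, Ldha, Aldoc and Tpi1), where 15.2% of all genes tested were higher and 12.6% lower (27.8% in either direction). With size factors of the relative log expression method it was 5 and 6. It turned to 7 higher and 2 lower with the scaling to ribosomal protein genes, which put the median of all genes at 0.256 (log2), against 0.0055 with the TMM scaling used here, and put Aldoc and Tpi1 on the side above 0. Of the 31 genes, 8 lay above the median of all genes under either scaling. Hif1a had 363, 349 and 325 CPM in KO libraries and 259.6, 271 and 264 CPM in WT (1.31-fold, log2 0.38 ± 0.066). Pfkfb3 had 519, 492 and 447 CPM in KO libraries and 313, 354 and 313 CPM in WT (log2 0.57 ± 0.088). Hk2 had 82.6, 75.1 and 67.7 CPM in KO libraries and 51.1, 61.1 and 52.3 CPM in WT (log2 0.46 ± 0.095). All 3 had KO libraries above WT libraries without overlap at 3 h. In either direction 17 of the 31 genes had no overlap there, and the share over all genes was not computed.

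On the lower side was Pdk1, which encodes a kinase that inhibits pyruvate dehydrogenase and so the oxidation of pyruvate in the mitochondria. Pdk1 had 99.6, 95.3 and 100.2 CPM in KO libraries and 145, 139 and 135 CPM in WT at 3 h (log2 -0.51 ± 0.055, edgeR adjusted p = 3.34e-09). Ldha had 558, 563 and 568 CPM in KO libraries and 734, 705 and 673 CPM in WT (log2 -0.32 ± 0.062). Pgk1 had 8.38, 8.76 and 13.3 CPM in KO libraries and 15.3, 15.1 and 14.6 CPM in WT (log2 -0.58 ± 0.12). In these 3 genes every KO library lay below every WT library, with the third KO library of Pgk1 the closest. Hif1a, Hk2 and Pfkfb3 on the higher side and Pdk1 and Pgk1 on the lower side held under all alternatives run at the same threshold. The calls of Aldoc, Ankrd37, Pgam1, Slc2a1 and Tpi1 were lost when 1 of 2 to 5 single libraries was left out, with log2 values of -0.22 to -0.16, -0.70 to -0.56, -0.61 to -0.49, 0.22 to 0.24 and -0.16 to -0.14 in that order.

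Pdk1 and P4ha2 were called lower in KO in each of the 6 conditions. With ribosomal protein scaling neither was called at 7 h, and P4ha2 was not called at 3 h. Both calls held at 0.5, 1, 2 and 4 h of ActD under all alternatives run at the same threshold, as did Pdk1 at 3 h. For Pdk1 the log2 fold change of KO over WT was -0.51 ± 0.055 at 3 h, then -0.61 ± 0.055, -0.44 ± 0.055, -0.60 ± 0.055 and -0.66 ± 0.055 after 0.5, 1, 2 and 4 h of ActD, and -0.21 ± 0.054 at 7 h. For P4ha2, which encodes a catalytic subunit of collagen prolyl 4-hydroxylase, it was -0.53 ± 0.098, -0.68 ± 0.098, -0.57 ± 0.097, -0.62 ± 0.098, -0.69 ± 0.098 and -0.31 ± 0.091 in the same order of conditions. Hif1a, Hk2, Pfkfb3 and Slc2a1 were higher in KO in 5 of the 6 conditions, all but 1 h of ActD, where Hif1a was at 0.11 ± 0.066 (edgeR adjusted p = 0.301). At 0.5 h of ActD the call of Hk2 was lost without any of 5 of the 6 libraries (log2 0.21 to 0.28), and that of Slc2a1 without KO library 2 or WT library 2 or 3 (0.17 to 0.23). At 2 h Hif1a (0.20) and Hk2 (0.27) were lost without WT library 3, as was Slc2a1 (0.19) at 4 h without WT library 3. P4ha1, the paralogue of P4ha2, was lower in 5 of 6, although at 1 h of ActD its call was lost without either of 2 libraries (-0.17 to -0.14) and at 4 h ribosomal protein scaling put it at 0.10. Within the ActD course 4 genes were higher and 13 lower in KO at 0.5 h, where 13.7% and 12.7% of all genes were (26.4% together). At 1 h 0 were higher and 4 lower, where 7.51% and 9.92% were (17.4% together). There DESeq2 gave 0 and 4 as well, removing the trend with gene length gave 3 and 2, and 1 gene higher and 9 lower had an unadjusted p under 0.05. At 2 h 6 were higher and 9 lower, where 14.7% and 15.4% were (30.2% together). At 4 h 5 were higher and 12 lower, where 17.7% and 17.9% were (35.6% together). Ribosomal protein scaling turned these splits to 4 and 3, 0 and 2, 7 and 6, and 9 and 3, and library totals alone gave 6 and 9 at 4 h. Without WT library 2 the count at 0.5 h was 10, and without KO library 2 the count at 1 h was 2.

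The change between 3 h and 7 h itself differed between KO and WT for 10 of the 31 genes, tested as an interaction. In KO 7 changed more towards higher levels and 3 less, where 5.45% and 6.84% of all genes tested did so (12.3% together). This comparison uses the same 3 h and 7 h libraries as the comparisons above and is not independent of them. The 7 were Slc16a1 (log2 difference 1.18 ± 0.11), Vegfa (1.04 ± 0.13), Pgk1 (0.60 ± 0.16), Hif1a (0.56 ± 0.093), Ldha (0.45 ± 0.088), Pfkl (0.34 ± 0.10) and Pdk1 (0.29 ± 0.077), and the 3 were Ndrg1 (-0.90 ± 0.12), Pfkfb4 (-0.55 ± 0.13) and Hk3 (-0.48 ± 0.11). Vegfa illustrates the pattern: its 3 h libraries were at 15.9, 14.5 and 15.6 CPM in KO and 16.0, 18.5 and 15.5 CPM in WT, with no difference that passed (edgeR adjusted p = 0.384), and its 7 h libraries stood apart. For Ndrg1 the 3 h libraries were at 97.7, 103 and 93.1 CPM in KO and 86.4, 90.0 and 79.4 CPM in WT, the KO ones being the higher without passing the test (edgeR adjusted p = 0.0857), and at 7 h the order had turned. Ldha at 7 h had 1474, 1393 and 1479 CPM in KO libraries and 1318, 1312 and 1336 CPM in WT, so that the lower KO level of 3 h was no longer seen. Slc16a1, Vegfa, Ndrg1, Pfkfb4 and Hk3 held under all alternatives run at the same threshold. Fitting only the 4 groups compared gave 13 and 3 genes, removing the trend with gene length 12 and 3, and ribosomal protein scaling 2 and 3. Pfkl was lost without WT library 1 of 7 h or 2 of 3 h (0.29 to 0.31) and Pgk1 without KO library 1 of 3 h (0.48).

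ActD after 3 h of R837 showed how the transcripts behaved without new synthesis. Slopes were fitted over 0, 0.5, 1, 2 and 4 h in 15 libraries per genotype, and they are relative to the average transcript, since no spike-in was analysed here. In KO 6 genes fell relative to it and in WT 5, where 35.8% and 34.8% of all genes did. A further 17 in KO and 18 in WT rose, where 32.3% and 35.5% of all genes did (68.1% and 70.3% in either direction). Vegfa, Hk2, the only enzyme gene among them, and the regulator gene Pfkfb3 fell fastest. Vegfa lost most: in KO it was at 15.3 ± 0.698, 10.7 ± 0.784, 6.32 ± 0.778, 2.97 ± 0.286 and 1.25 ± 0.163 CPM at 0, 0.5, 1, 2 and 4 h of ActD (SD, n = 3 each), and in WT at 16.7 ± 1.64, 13.2 ± 1.48, 7.20 ± 0.0524, 2.68 ± 0.54 and 1.15 ± 0.321 CPM. Its slope was -0.94 ± 0.06 log2 per hour in KO and -1.05 ± 0.064 in WT, a relative half-life of 1.07 h in KO and 0.955 h in WT. Hk2 followed with a relative half-life of 2.03 h in KO and 1.76 h in WT (slopes -0.49 ± 0.04 and -0.57 ± 0.043). Next came Pfkfb3 with 2.62 h in KO and 2.4 h in WT (-0.38 ± 0.042 and -0.42 ± 0.043) and Ankrd37 with 3.42 h in KO and 3.13 h in WT (-0.29 ± 0.087 and -0.32 ± 0.082). Pfkfb3 had 535 ± 16.7 CPM in KO libraries and 386 ± 75.4 CPM in WT after 0.5 h, against 486 ± 36.5 CPM in KO and 326 ± 23.6 CPM in WT before ActD, and it was lower at each later time. Ankrd37 too had a higher mean after 0.5 h (2.90 ± 0.55 CPM in KO, 5.69 ± 0.398 in WT) than before ActD (2.09 ± 0.369 and 3.58 ± 0.981). After 4 h Ankrd37 was at 1.18 ± 0.56 CPM in KO and 1.85 ± 0.347 in WT. A single slope thus describes its low levels only roughly.

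The other phosphofructokinase-2 gene, Pfkfb4, declined slowly (slopes -0.12 ± 0.036 in KO and -0.092 ± 0.036 in WT), and Egln3 fell in KO by the test (-0.23 ± 0.059), with -0.067 ± 0.056 in WT (edgeR adjusted p = 0.285). Slc2a1, Slc16a1, Slc16a3, Egln1, Ndrg1, Hk1 and Pfkm stayed near the average transcript, with slopes of -0.071 to 0.037 in KO and -0.068 to 0.023 in WT that did not pass the test. Among the enzymes, Ldha (0.11 ± 0.018 in KO, 0.12 ± 0.018 in WT), Pkm (0.076 ± 0.013 in KO, 0.089 ± 0.013 in WT) and Tpi1 (0.071 ± 0.017 in KO, 0.082 ± 0.017 in WT) gained on the average transcript. So did Hif1a (0.067 ± 0.02 in KO, 0.085 ± 0.021 in WT). These positive values depend on the scale: with ribosomal protein scaling, which put the median slope of all genes at -0.164 in KO and -0.20 in WT (-0.0041 and 0.0088 with TMM), no slope of the 31 was higher and 23 in KO and 26 in WT were lower. With library totals alone 4 were higher and 12 lower in KO, and 6 and 14 in WT. Over 0 to 2 h only, 9 were higher and 4 lower in KO, and 5 and 7 in WT. The falls of Vegfa, Hk2 and Pfkfb3 held in both genotypes under all alternatives run at the same threshold. That of Ankrd37 did in WT and was lost in KO without KO library 1 of 4 h (slope -0.19). That of Pfkfb4 was lost without 1 library of 4 h in either genotype (KO library 1, or any of the 3 in WT; slopes of -0.095 to -0.086), and over 0 to 2 h its WT slope was 0.020.

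The slopes of KO and WT were close. Of the 31 genes 0 passed the test of the difference in slope in edgeR and 0 in DESeq2, with 4 of 31 in edgeR and 1 of 31 in DESeq2 at an unadjusted p under 0.05. Of all genes 0.0517% passed it on the higher and 0.0148% on the lower side in edgeR (0.0665% together). The differences in slope (KO minus WT) were 0.11 ± 0.092 log2 per hour for Vegfa, 0.077 ± 0.056 for Hk2, 0.035 ± 0.057 for Pfkfb3 and -0.018 ± 0.029 for Hif1a, and the lowest was -0.17 ± 0.081 for Egln3. Differences within these errors cannot be resolved with these libraries, and the absence of a call does not show equal decay.

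**Figure D5:**
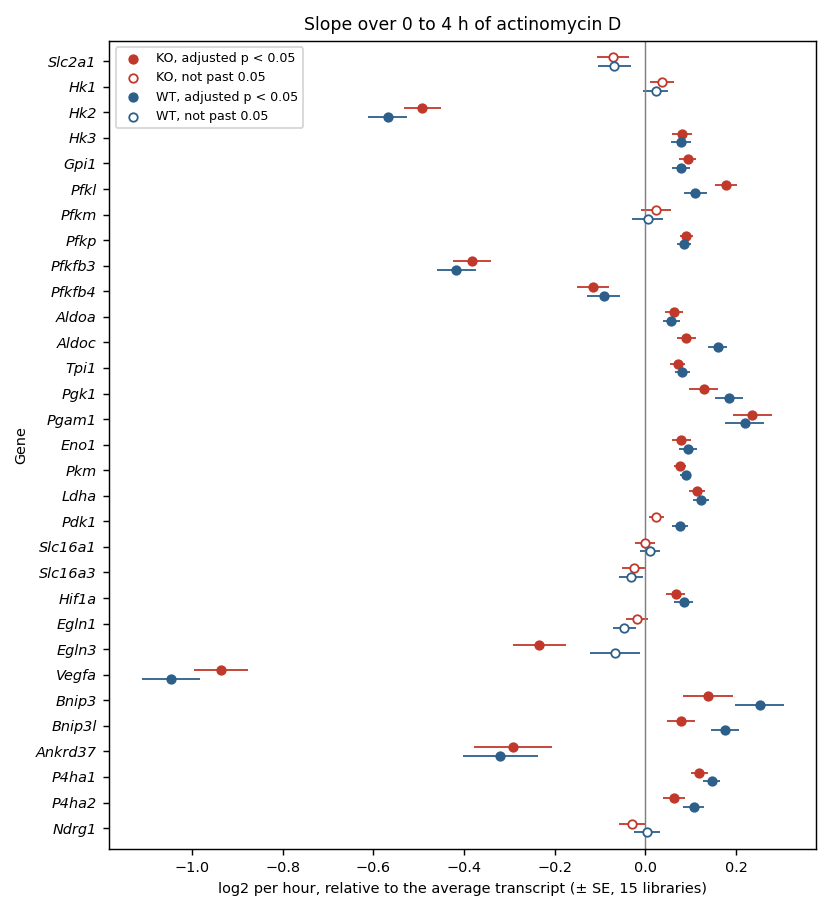
Slope of each of the 31 genes over 0 to 4 h of ActD after 3 h of R837, in log2 per hour relative to the average transcript ± SE, for KO (red, upper point) and WT (blue, lower point), 15 libraries each. Filled points passed an adjusted p of 0.05. Vegfa, Hk2, Pfkfb3 and Ankrd37 lie far left in both genotypes, and most enzymes lie slightly right of 0, which ribosomal protein scaling turns to the left.

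Macrophages with 3 h of R837 and 4 h of ActD can be set against those with 7 h of R837, since both were collected 7 h after R837 was first given. With ActD, 24 of the 31 genes were lower in KO and 21 in WT, where 38.0% and 37.9% of all genes were lower. In KO 4 and in WT 3 were higher, where 36.1% and 37.3% of all genes were (74.1% and 75.3% in either direction). Ribosomal protein scaling gave 28 and 29 lower and 0 higher, and removing the trend with gene length gave 18 lower and 6 higher in WT. Vegfa was at 1.26, 1.08 and 1.41 CPM in KO with ActD and 53.0, 57.4 and 56.9 CPM in KO at 7 h without it (44.0-fold lower, log2 -5.46 ± 0.13). It was at 0.892, 1.51 and 1.04 CPM in WT with ActD and 28.9, 29.8 and 29.3 CPM in WT without it (log2 -4.65 ± 0.14). Egln3 was at 1.75, 1.74 and 1.33 CPM in KO with ActD (log2 -4.54 ± 0.19) and 3.57, 2.74 and 3.29 CPM in WT with ActD (-3.87 ± 0.18). Slc16a1 was at 29.0, 26.2 and 30.4 CPM in KO with ActD (log2 -3.19 ± 0.084) and 34.5, 30.3 and 27.3 CPM in WT with ActD (-1.996 ± 0.083), close to its 3 h levels. Hif1a was at 455, 406 and 393 CPM in KO with ActD (log2 -1.14 ± 0.067) and 376, 328 and 303 CPM in WT with ActD (-0.52 ± 0.066), and its KO libraries stayed above its WT libraries there. The genes that were higher with ActD than at 7 h without it in both genotypes were Pfkm, Aldoc and Hk3, of which ribosomal protein scaling put Aldoc in WT below 0 (-0.072) and both that scaling and library totals alone put Hk3 in WT below 0 (-0.60 and -0.040).

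The change with ActD differed between KO and WT for 13 of the 31 genes, 10 with a deeper fall or smaller gain in KO and 3 the other way (7.94% of all genes higher and 6.71% lower in the difference, 14.6% together). The 7 h libraries are again those used above. Slc16a1 (-1.20 ± 0.11), Hif1a (-0.63 ± 0.093) and Bnip3 (-0.97 ± 0.26) were among the 10, and Ndrg1 (0.69 ± 0.12), Hk3 (0.48 ± 0.11) and Pfkfb4 (0.47 ± 0.14) were the 3. Slc16a1, Ndrg1 and Hk3 held under all alternatives run at the same threshold. Vegfa (-0.81 ± 0.24) was at -0.53 without WT library 2 of 4 h of ActD and no longer called. Bnip3, at -0.77, was lost without KO library 1 or WT library 1 of 4 h of ActD, and Pfkfb4, at 0.42, without KO library 2 of it. The calls of Bnip3l (-0.45 to -0.35), P4ha2 (-0.41 to -0.33) and Tpi1 (-0.24 to -0.20) were lost without any of 8, 11 and 9 single libraries. Ribosomal protein scaling gave 3 higher and 1 lower in the difference, and library totals alone 4 and 6.

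Neighbouring genes of the pathway outside the 31 were counted by list, and these lists too were chosen with earlier results of these data known. Of 27 other HIF-1 target genes tested, 11 were higher and 6 lower in KO than in WT at 7 h, and 6 were higher and 5 lower at 3 h. These are 40.7% and 22.2% of the list at 7 h and 22.2% and 18.5% at 3 h, to be read against the shares of all genes given above (15.5% and 15.1% at 7 h, 15.2% and 12.6% at 3 h). At 7 h the largest difference was in Ddit4, which encodes an inhibitor of mTORC1 (82.3 ± 4.43 CPM in KO and 10.2 ± 1.56 CPM in WT, SD, n = 3 each). The very low Stc2 was higher in KO as well (0.963 ± 0.115 CPM in KO and 0.247 ± 0.0328 CPM in WT). Between 3 h and 7 h 18 of the 27 rose and 4 fell in KO (66.7% and 14.8%, against 28.7% and 31.7% of all genes), and 15 rose and 7 fell in WT (55.6% and 25.9%, against 27.3% and 30.7%). Gys1, the muscle glycogen synthase gene, rose by log2 3.68 ± 0.14 in KO and 3.56 ± 0.14 in WT. The lipid droplet gene Hilpda rose by 3.02 ± 0.083 in KO and 1.98 ± 0.081 in WT, while the low Angptl4 fell (-3.64 ± 0.33 in KO, -3.11 ± 0.27 in WT). Of 9 other glycolytic genes tested, most of them paralogues, 2 rose and 7 fell in KO (22.2% and 77.8%) and 1 rose and 5 fell in WT (11.1% and 55.6%). The enolase genes Eno3 (-1.74 ± 0.14 in KO, -1.31 ± 0.13 in WT) and Eno2 (-1.60 ± 0.12 in KO, -0.64 ± 0.12 in WT) were among those that fell, whereas Eno1 rose. Of 7 pentose phosphate genes 4 rose and 2 fell in KO (57.1% and 28.6%) and 3 rose and 2 fell in WT (42.9% and 28.6%), and 0 were called between KO and WT at 7 h in edgeR, with 1 at an unadjusted p under 0.05. Of 11 genes of pyruvate oxidation 4 rose and 3 fell in KO (36.4% and 27.3%) and 2 rose and 4 fell in WT (18.2% and 36.4%), to be read against the same shares of all genes. Of 7 genes that act on HIF-1, 3 rose and 2 fell in KO (42.9% and 28.6%), 2 rose and 2 fell in WT (28.6% each), and 3 (42.9%) were higher in KO than in WT at 7 h. Vhl, which encodes the adaptor that targets the alpha subunit for destruction, rose (log2 1.28 ± 0.07 in KO, 0.90 ± 0.069 in WT). Cited2, which encodes a competitor for the coactivator of HIF-1, fell (-2.12 ± 0.099 in KO, -2.10 ± 0.10 in WT) and was higher in KO than in WT at 7 h (0.47 ± 0.10).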

How the data were processed

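RNA-seq of 36 libraries was deposited by the authors as 1 table per library, with the raw read count of each Ensembl gene, the width in bases used for length, and RPKM (reads scaled to gene length and library total). Per the labels the libraries were made from total RNA with the TruSeq RNA v2 kit, and single-end reads of 50 bases were taken. Alignment was done with GSNAP to GRCm38, per the submitters' processing notes; the counting tool and the annotation release are not given in the sources used here. RPKM values as deposited were used only to check the counts, whose sums were 90.9 to 91.8% of the total that RPKM implies. Gene names came from GENCODE M21 for 52403 of 52636 identifiers. No library pair held identical values.

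The counts were tested with edgeR 4.0.16 (R 4.3.3, limma 3.58.1): TMM scaling, the default filter on low counts, a quasi-likelihood F test and Benjamini-Hochberg adjustment over all genes tested, at 0.05. One model held the 12 groups (36 libraries, 13748 genes), and a second held a slope over ActD hours for each genotype (30 libraries, 13537 genes). Standard errors follow from the F statistic, and CPM are TMM-scaled. The biological coefficient of variation was 7.48%. The procedure was run on simulated counts with a constant spread and few changed genes. That setting does not test the scaling under changes as wide as those seen here. Depth was 20271550 to 46107214 counts per library.

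Groups follow the genotype and treatment labels; replicates were numbered in order of accession and pair nothing. Whether libraries of different conditions share mice is not known, and p-values do not allow for it. The 31 genes and all lists were chosen with earlier results of these data known. Values of every library are given for at most 8 called genes per comparison, those with the largest change at a mean of 5 CPM or more, and always for Hif1a; in other lists at most 3 called genes are named, and a gene that falls under this rule is not reported here. Alternatives were DESeq2 1.42.0, relative log expression size factors, library totals, ribosomal protein scaling, no filter, a stricter filter (1 CPM in 3 libraries), removal of the trend with gene length, only the groups compared, an adjusted p of 0.01, slopes over 0 to 2 h, a direct comparison of 4 h of ActD with 3 h of R837, and leaving out each library. Promoter sequences are RefSeq's for GRCm38.p6, matched by symbol.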

Additional observations from a re-analysis of the deposited data

Results flagged for a closer look

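The change between 3 h and 7 h of R837 differed between KO and WT macrophages by an interaction test across all genes (edgeR, adjusted p below 0.05) for 10 of the 31 genes. Of all genes tested 12.3% passed it, and 5 of the 10 calls held under all alternatives run at the same threshold. The log2 difference, KO minus WT, was Slc16a1 at 1.18, Vegfa at 1.04, Pgk1 at 0.60, Hif1a at 0.56, Ldha at 0.45, Pfkl at 0.34 and Pdk1 at 0.29 on the higher side. It was Hk3 at -0.48, Pfkfb4 at -0.55 and Ndrg1 at -0.90 on the lower side. Groups are made of 3 libraries each.

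The change with 4 h of ActD relative to 7 h of R837 alone differed by the same test for 13 genes. Of all genes tested 14.6% passed it, and 3 of the 13 calls held under all alternatives run at the same threshold. The calls of Bnip3l, P4ha2 and Tpi1 were lost without any of 8, 11 and 9 single libraries. The log2 difference, KO minus WT, was Slc16a1 at -1.20, Bnip3 at -0.97, Vegfa at -0.81, Hif1a at -0.63, Pgk1 at -0.61, Pdk1 at -0.45, Bnip3l at -0.44, Ldha at -0.43, P4ha2 at -0.38 and Tpi1 at -0.24 on the lower side. It was Ndrg1 at 0.69, Hk3 at 0.48 and Pfkfb4 at 0.47 on the higher side. Slc16a1, Vegfa, Hif1a, Pgk1, Ldha, Pdk1, Ndrg1, Pfkfb4 and Hk3 are in both lists, which share the 7 h libraries.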

How the results depend on the processing

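Each library was left out in turn, and the number of the 31 genes called ranged over 15 to 18 for KO against WT at 7 h, 8 to 15 at 3 h, 10 to 18, 2 to 6, 11 to 15 and 13 to 18 after 0.5, 1, 2 and 4 h of ActD. It ranged over 31 to 31 in KO and 29 to 30 in WT for 7 h against 3 h, 9 to 11 for the difference of that change, and 27 to 29 in KO and 23 to 25 in WT for ActD against 7 h. It was 9 to 11 for its difference, 21 to 23 in KO and 21 to 25 in WT for the slopes, and 0 to 0 for their difference. Scaling to ribosomal protein genes gave 11 called genes at 7 h, 7 after 0.5 h and 2 after 1 h of ActD, 5 for the difference in 7 h against 3 h and 4 for that in ActD against 7 h. Fitting only the groups compared gave 8 after 0.5 h of ActD and 16 for the difference in 7 h against 3 h, and library totals gave 8 after 1 h of ActD. An adjusted p of 0.01 gave 10 after 0.5 h, 2 after 1 h and 8 for the difference in ActD against 7 h, and slopes over 0 to 2 h gave 13 in KO and 12 in WT (5 higher and 7 lower in WT). The remaining counts lay within 1.5 times the reported ones under the alternatives run. With ribosomal protein scaling the log2 fold change of KO over WT changed sign at 3 h for Aldoc (0.027) and Tpi1 (0.099), and after 4 h of ActD for Tpi1 (0.13), Pkm (0.14), Ldha (0.0025) and P4ha1 (0.10). For ActD against 7 h it did so in KO for Pfkp (-0.39), in WT for Hk3 (-0.60) and Aldoc (-0.072) and, with library totals, for Hk3 (-0.040), and in the difference for Tpi1 (0.029). The slope in KO changed sign with ribosomal protein scaling for Hk3 (-0.080), Gpi1 (-0.069), Pfkp (-0.071), Aldoa (-0.098), Aldoc (-0.070), Tpi1 (-0.090), Pgk1 (-0.031), Eno1 (-0.083), Pkm (-0.086), Ldha (-0.047), Hif1a (-0.095), Bnip3 (-0.026), Bnip3l (-0.081), P4ha1 (-0.041) and P4ha2 (-0.096). With library totals it did so for Aldoa (-0.0035), Hif1a (-0.00038) and P4ha2 (-0.0033). The slope in WT did so with ribosomal protein scaling for Hk3 (-0.13), Gpi1 (-0.13), Pfkl (-0.098), Pfkp (-0.12), Aldoa (-0.15), Aldoc (-0.048), Tpi1 (-0.13), Pgk1 (-0.025), Eno1 (-0.12), Pkm (-0.12), Ldha (-0.089), Pdk1 (-0.13), Hif1a (-0.12), Bnip3l (-0.034), P4ha1 (-0.060) and P4ha2 (-0.10). With library totals it did so for Hk3 (-0.026), Gpi1 (-0.027), Pfkp (-0.020), Aldoa (-0.048), Tpi1 (-0.024), Eno1 (-0.013), Pkm (-0.017), Pdk1 (-0.029) and Hif1a (-0.020), and over 0 to 2 h for Aldoa (-0.037), Tpi1 (-0.022) and Pfkfb4 (0.020). Ribosomal protein scaling put the median of all genes at 0.256 for KO over WT at 3 h and 0.304 after 4 h of ActD, at -0.529 in KO and -0.785 in WT for ActD against 7 h and at -0.164 and -0.2 per hour for the slopes (between -0.0041 and 0.0233 with TMM), and the cause was not tested.

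No paired analysis was possible because the labels give no replicate numbers, so that libraries of different groups cannot be matched. With 3 libraries per group and median counts of 62 to 130.5 for Pgam1, Ankrd37, Egln3 and Pfkm, the standard errors of these genes are wide, and a missing call for them says little. Changes are relative to the other transcripts of a library.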

Other observations

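Ddit4, on the list of other HIF-1 targets, changed in opposite directions between 3 h and 7 h in the genotypes. It rose in KO (log2 1.43 ± 0.11) and fell in WT (-1.004 ± 0.12), with a difference of 2.44 ± 0.16. All 3 Ddit4 libraries of KO at 7 h lay above those of WT.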
